A study of Populus tomentosa with 9 samples.

Results

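Among the genes measured in poplar suspension cells are 2 that the deposited comparison tables describe with the bifunctional inhibitor, plant lipid transfer protein and seed storage domain. POPTR_0002s25240 carries that domain alone, and POPTR_0001s00400 is described as a hydrophobic seed protein with the same domain. They are 2 of 41624 genes in the table, and both are among the 23350 genes tested, whose mean level was 1 FPKM or more (sequenced fragments per kilobase of gene and per unit of library depth). The pair was chosen because both were higher after each of 2 treatments than in control cells of all 3 cell lines. Their rise over control is therefore given as a description and is not tested. The domain names a protein fold, and the files hold no evidence on what either protein binds.

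Plant lipid transfer proteins are small, secreted, basic proteins in which conserved cysteines form disulfide bonds around a hydrophobic cavity. Many bind fatty acids or other lipids in the laboratory, and family members are known for roles in the cuticle, in cell wall lipid deposition and in defence, where some are grouped with the pathogenesis-related proteins. Hydrophobic seed proteins share this cysteine pattern and take their name from a protein found on soybean seed coats. In many plant proteins the same domain follows a proline-rich stretch of the kind found in cell wall proteins.

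RNA sequencing was done on suspension cells of Populus tomentosa in 9 libraries, with a single library per line and treatment and thus no replicate of any condition. The lines were an overexpression line, an antisense line and a wild type, each a single line. The sources used here do not name the gene that the constructs target, so its level could not serve as a check of the labels. All cells were grown in the dark at 25 °C with shaking at 140 rpm and collected 5 days after subculture. Treated cells received H2O2, a reactive oxygen compound, at 10 mM for 3 h, or ASA, which the labels do not spell out, at 1 mM for 3 h; the remaining cells were controls. The extraction text of the labels speaks of Arabidopsis stems, against the poplar cells named elsewhere and the POPTR identifiers. No protein, promoter or genome sequence for these identifiers was used here.

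Whole reads recovered from the FPKM values gave depths of 17102469 to 19629543 reads per library. The overexpression H2O2 and ASA libraries stood apart on the first principal component of log2(FPKM + 1), at 87.2 and 67.4, with the other 7 between -37.1 and -4.50. The H2O2 minus ASA difference of the antisense line ran against that of wild type across genes (r = -0.838 over 23350 genes, which are not independent replicates). It also ran against that of the overexpression line (r = -0.577), whereas the overexpression line and wild type ran together (r = 0.622). Whether the labels of the treated antisense libraries are exchanged was not tested, so H2O2 and ASA values of that line stand as labelled. The part of these departures in the results below was not tested, and results are given with single libraries left out. Suspension cells have no defining marker list here. The deposited descriptions hold 2 photosynthesis genes, whose summed level was 6.70 to 20.4 FPKM in the overexpression line, 15.2 to 21.8 in the antisense line and 36.5 to 47.3 in wild type. Only genes that the authors listed as different from wild type carry a description, so the choice of these 2 genes favours a line difference. The part of this line difference in the results by line was not tested.

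POPTR_0002s25240 was measured from 122 to 1255 reads per library. In the overexpression line it had 59.5 FPKM after H2O2 and 59.6 FPKM after ASA, against 17.1 FPKM in control cells. In the antisense line the levels were 44.6 FPKM after H2O2 and 53.6 FPKM after ASA, against 12.2 FPKM in the control. Wild type cells had 30.7 FPKM after H2O2 and 21.9 FPKM after ASA, against 5.86 FPKM in the control. All 6 treated libraries were thus above all 3 controls. The choice of the pair favours this separation, and the share of tested genes that show it was not counted. Within each treatment the order of lines was overexpression, antisense, wild type. From the highest level down, the counting intervals (exact 95% Poisson intervals, which cover counting error only) overlapped between overexpression ASA, overexpression H2O2 and antisense ASA, and between no other neighbours in the order. Its percentile among tested genes was 89.8 in both treated overexpression libraries, against 32.0 in the wild type control.

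The hydrophobic seed protein gene POPTR_0001s00400 was measured from 322 to 4728 reads per library. In the overexpression line it had 274 FPKM after H2O2 and 367 FPKM after ASA, against 37.4 FPKM in the control. In the antisense line it had 68.7 FPKM after H2O2 and 72.9 FPKM after ASA, against 37.6 FPKM in the control. Wild type cells had 57.1 FPKM after H2O2 and 54.7 FPKM after ASA, against 24.3 FPKM in the control. Again every treated library was above every control, with the same limit, and both treated overexpression libraries were far above the other 7. Neighbours whose counting intervals overlapped were the pair of treated antisense libraries, the pair of treated wild type libraries, and the antisense and overexpression controls. In overexpression cells after ASA the gene ranked 353rd of all genes by FPKM, against 5979th in the wild type control.

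**Figure D1:**
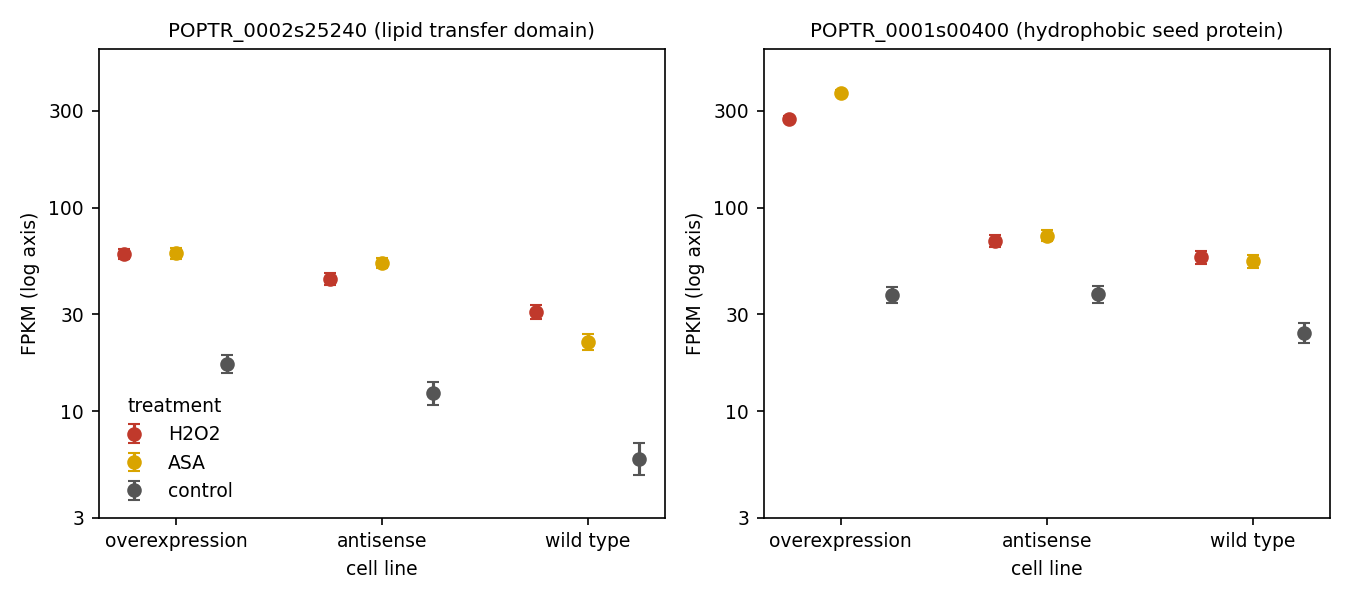
Level of each gene in the 9 libraries, in FPKM on a log axis, by cell line and treatment, with exact 95% counting intervals as bars. Every treated point lies above every control point of the same gene, which the choice of the pair favours. The 2 treated overexpression libraries of POPTR_0001s00400, at 274 and 367 FPKM, lie above the rest.

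The rise over control, which chose the pair, differed in size between the genes. For POPTR_0002s25240 the FPKM ratio of treated to control cells lay between 3.47 and 5.24 in the 6 pairs of libraries. It was 3.47 after H2O2 (95% counting interval 3.09 to 3.92) and 3.48 after ASA (3.10 to 3.93) in the overexpression line. In the antisense line it was 3.65 after H2O2 (3.15 to 4.24) and 4.38 after ASA (3.79 to 5.07). In wild type it was 5.24 after H2O2 (4.31 to 6.41) and 3.74 after ASA (3.05 to 4.61). The lowest ratios belonged to the line with the highest control level, but that single control library divides both ratios of the line. Their intervals overlapped those of the antisense line after both treatments and of wild type after ASA. Whether control level and rise are related was not tested.

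POPTR_0001s00400 had ratios between 1.83 and 9.82. In the overexpression line the ratio was 7.33 after H2O2 (6.68 to 8.06) and 9.82 after ASA (8.96 to 10.8). It was 1.83 after H2O2 (1.63 to 2.05) and 1.94 after ASA (1.73 to 2.17) in the antisense line, and 2.35 (2.06 to 2.69) and 2.25 (1.97 to 2.58) in wild type. The intervals of the overexpression line lay clear of those of the other lines after each treatment.

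**Figure D2:**
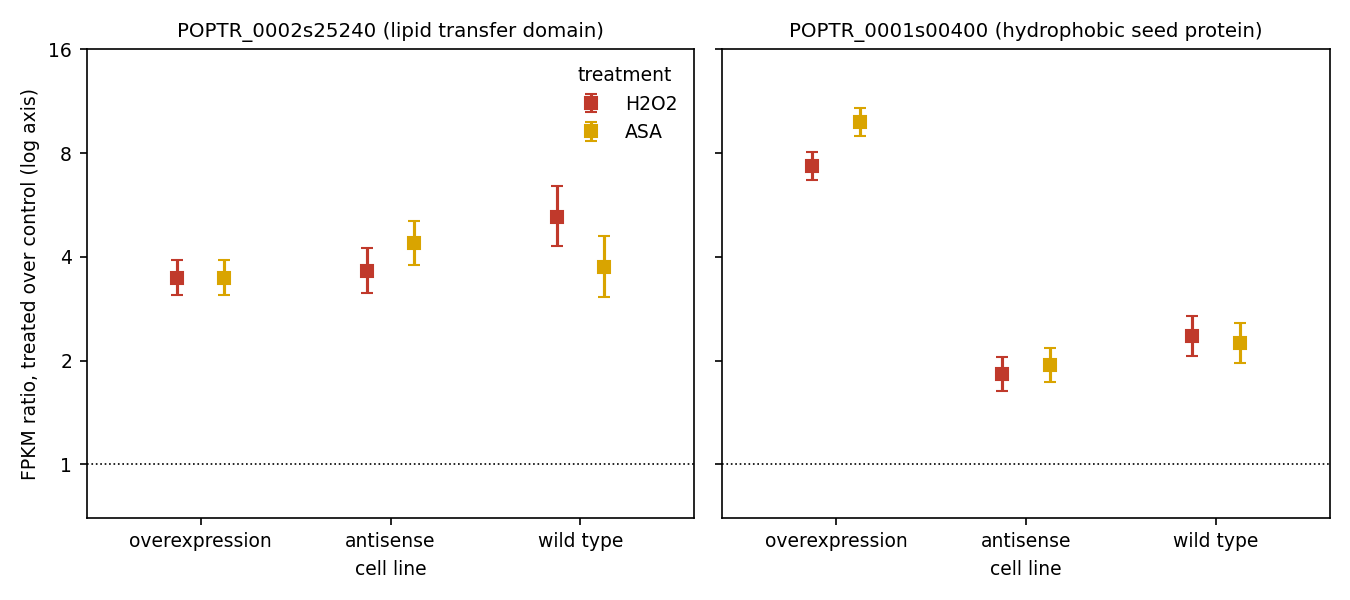
FPKM ratio of treated to control cells within each line, on a log axis, with exact 95% counting intervals; the dotted line marks no difference. POPTR_0002s25240 lies between 3.47 and 5.24 throughout, whereas POPTR_0001s00400 lies at 7.33 and 9.82 in the overexpression line and between 1.83 and 2.35 in the other 2.

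Of the tested genes 6.57% were above control in all 6 treated libraries, and 0.0128% (3 genes) were at least 2-fold above it in all 6 on the log2(FPKM + 1) scale, POPTR_0002s25240 among them. Ranked by the smallest of the 6 differences, POPTR_0002s25240 was 2nd and POPTR_0001s00400 8th of 23350, which restates how the pair was found. On that scale both genes were at least 2-fold higher in the overexpression line after H2O2 (5.41% of tested genes) and after ASA (4.51%), and in the wild type line after H2O2 (3.4%) and ASA (2.61%). In the antisense line the fold was reached by POPTR_0002s25240 and not by POPTR_0001s00400, after H2O2 (1.1%) and after ASA (3.01%). Just inside the choice, the smallest ratio of POPTR_0001s00400 was 1.83, and next among genes of the same family list came POPTR_0006s01020 at 1.59.

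The rise that chose the pair did not use the difference between lines. That difference was tested with limma on log2(FPKM + 1) of all 9 libraries, in a model of line plus treatment. Both genes carry a description because the authors listed them as different from wild type. Tests against wild type are therefore not independent of how the pair was named. Values are log2 differences with SE, and p-values are adjusted over all 23350 genes by the Benjamini-Hochberg method with a threshold of 0.05. Without replicates the residual is the scatter of a line difference over treatments, and genes chosen for rising in every line may have a small residual for that reason. In overexpression against wild type 1 of the 2 genes passed, where 1.05% of all tested genes were called higher and 2.86% were called in either direction. POPTR_0002s25240 rose by 1.25 ± 0.19 (limma adjusted p = 0.0209), with means of 45.4 ± 24.5 FPKM in the overexpression line and 19.5 ± 12.6 FPKM in wild type (SD over 3 treatments, n = 3 each). It was higher in 3 of 3 treatments, and its 95% interval was 0.81 to 1.69.

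POPTR_0001s00400 was at 1.86 ± 0.44 in overexpression against wild type and did not pass (limma adjusted p = 0.0745, 95% interval 0.82 to 2.89). Its means were 226 ± 170 FPKM in the overexpression line and 45.4 ± 18.3 FPKM in wild type (SD over 3 treatments, n = 3 each). The difference was larger than that of POPTR_0002s25240, and so was its scatter over treatments. It passed in 1 of the 9 single omissions, without the overexpression control, where the estimate was 2.53 (limma adjusted p = 0.00421). The estimate was 1.62 without overexpression H2O2 (limma adjusted p = 0.303) and 1.42 without overexpression ASA (limma adjusted p = 0.266).

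The call for POPTR_0002s25240 was kept without the overexpression control, without antisense H2O2 and without antisense ASA. It was lost without overexpression H2O2 (limma adjusted p = 0.104), overexpression ASA (0.113), the antisense control (0.0613), wild type H2O2 (0.0667), wild type ASA (0.125) or the wild type control (0.114), with the estimate between 1.12 and 1.42 throughout. Without both treated antisense libraries the adjusted p was 0.0480.

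Within treatments, the ratio of overexpression to wild type for POPTR_0002s25240 was 1.94 after H2O2 (95% counting interval 1.76 to 2.14), 2.72 after ASA (2.44 to 3.04) and 2.92 in control cells (2.38 to 3.62). The line difference was thus present before treatment and no larger after it. POPTR_0001s00400 ran the other way, with ratios of 4.80 after H2O2 (4.44 to 5.20), 6.71 after ASA (6.20 to 7.28) and 1.54 in control cells (1.34 to 1.78). On the log2(FPKM + 1) scale the 2-fold mark over wild type was passed after H2O2 by POPTR_0001s00400 alone (3.96% of tested genes), after ASA by both genes (4.95%) and in controls by POPTR_0002s25240 alone (5.88%).

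In antisense against wild type 0 of the 2 genes passed, where 0.0814% of tested genes were called. POPTR_0002s25240 was at 0.91 ± 0.19 (limma adjusted p = 0.254, 95% interval 0.47 to 1.35), higher in 3 of 3 treatments, with a mean of 36.8 ± 21.7 FPKM in the antisense line (SD over 3 treatments, n = 3). Its ratio of antisense to wild type was 1.45 after H2O2 (95% counting interval 1.31 to 1.61), 2.45 after ASA (2.19 to 2.74) and 2.09 in controls (1.67 to 2.63). POPTR_0001s00400 was at 0.43 ± 0.44 (limma adjusted p = 0.790, 95% interval -0.61 to 1.46), with ratios of 1.20, 1.33 and 1.55 after H2O2, after ASA and in controls. Both genes were thus above wild type in every antisense library, by an amount that did not pass the test over all genes. The median log2(FPKM + 1) difference of tested genes was -0.032 after H2O2, 0.22 after ASA and 0.074 in controls. Against all tested genes POPTR_0001s00400 was at percentiles 75.0, 64.0 and 91.2, and POPTR_0002s25240 at 87.1, 96.9 and 97.3. The share of tested genes above wild type in every antisense library was not counted. The only ratio past the 2-fold mark on the log2(FPKM + 1) scale was that of POPTR_0002s25240 after ASA, where 6.63% of tested genes were; it was passed by 0 of the 2 genes after H2O2 (4.53%) and in controls (2.31%).

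**Figure D3:**
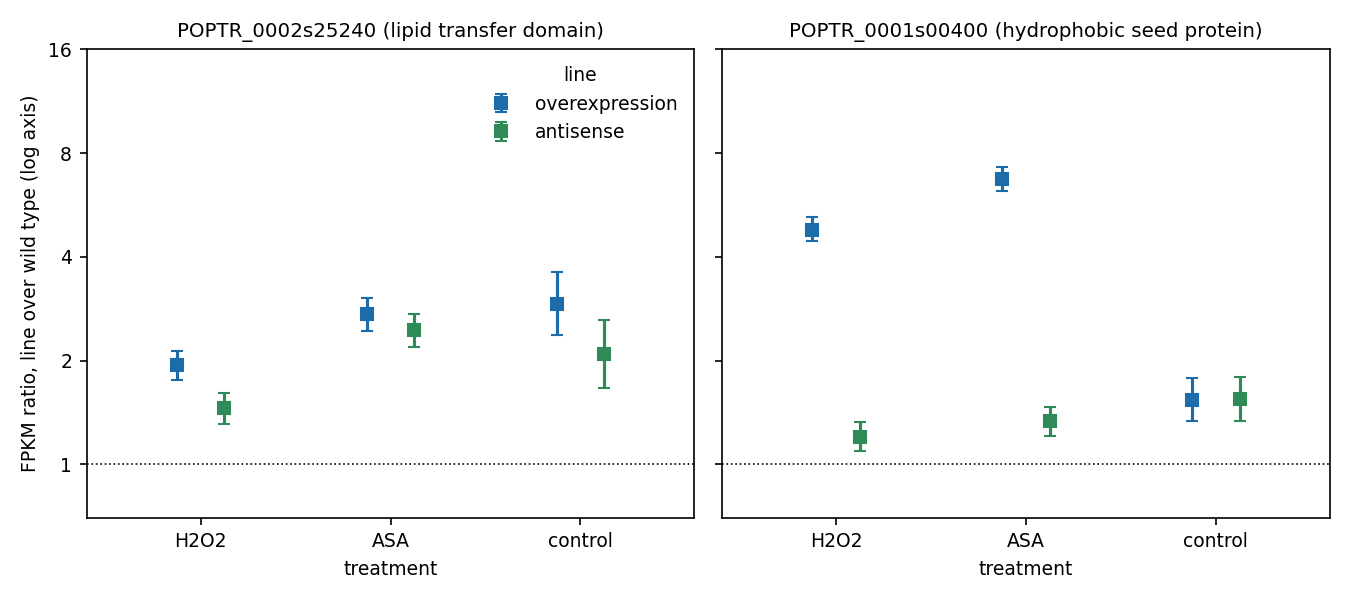
FPKM ratio of the overexpression and antisense lines to wild type within each treatment, on a log axis, with exact 95% counting intervals. All 12 ratios lie above 1, and the share of tested genes above wild type throughout was not counted. For POPTR_0001s00400 the overexpression line is at 4.80 and 6.71 after treatment and at 1.54 in controls, beside the antisense line at 1.55.

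In overexpression against antisense 0 of the 2 genes passed, where 0.364% of tested genes were called. POPTR_0002s25240 was at 0.34 ± 0.19 (limma adjusted p = 0.389, 95% interval -0.10 to 0.78) and POPTR_0001s00400 at 1.43 ± 0.44 (limma adjusted p = 0.181, 95% interval 0.40 to 2.46). POPTR_0001s00400 passed in 1 of the 9 single omissions, without the overexpression control, at 2.10 (limma adjusted p = 0.00731). Over the 9 omissions its estimate was 0.99 to 2.10, with a highest limma adjusted p of 0.633. Without both treated antisense libraries, which leaves the antisense control alone, the estimate was 0.62. The overexpression to antisense ratio of POPTR_0001s00400 was 3.99 after H2O2 (95% counting interval 3.70 to 4.30), 5.04 after ASA (4.70 to 5.41) and 0.994 in controls (0.874 to 1.13). In control cells the level of the hydrophobic seed protein gene therefore did not differ between these lines beyond counting error, and only the treated libraries set them apart.

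The mean of the H2O2 and ASA differences from control, on the log2(FPKM + 1) scale, sums up the response of each line; it is built from the values that chose the pair and is a description with no test. For POPTR_0001s00400 it was 3.05 in the overexpression line, 0.89 in the antisense line and 1.17 in wild type. For POPTR_0002s25240 it was 1.74 in the overexpression line, 1.91 in the antisense line and 1.97 in wild type. The hydrophobic seed protein gene thus had its highest response in the overexpression line. The responses of POPTR_0002s25240 lay close together. The counting intervals of its overexpression ratios overlapped those of the antisense line after both treatments and of wild type after ASA. They lay below that of wild type only after H2O2, so no order of lines is drawn for it.

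**Figure D4:**
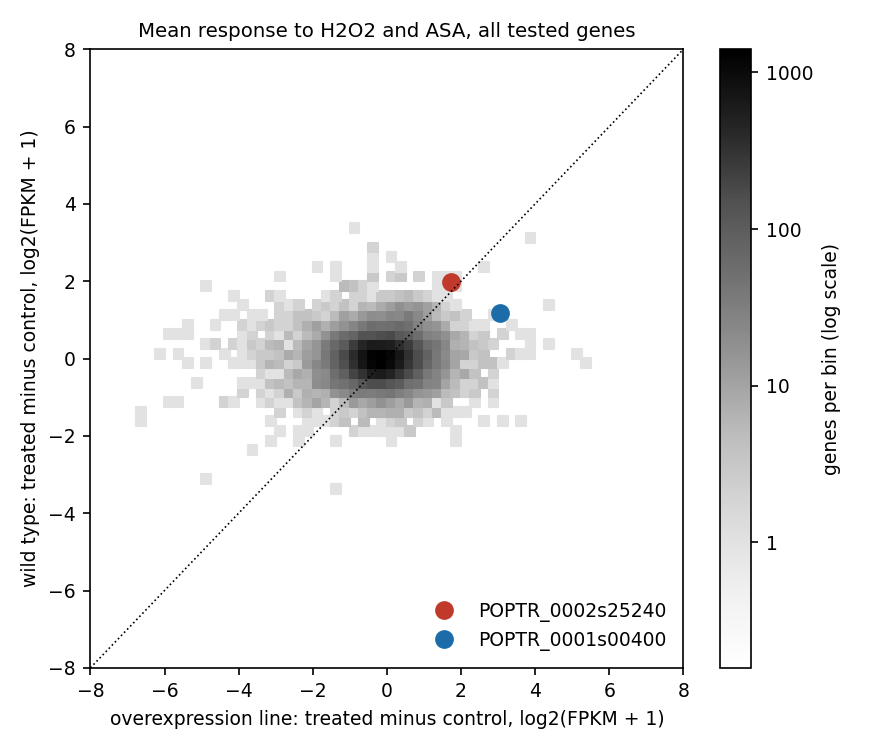
Mean response to H2O2 and ASA (treated minus control, log2(FPKM + 1)) in the overexpression line on the horizontal axis and in wild type on the vertical axis; grey squares give the number of tested genes per bin and the dotted line marks equal responses. POPTR_0002s25240 (1.74 and 1.97) lies near that line, and POPTR_0001s00400 (3.05 and 1.17) lies to the right of it.

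The treatments were also compared with each other. H2O2 minus ASA was 0.07 ± 0.19 for POPTR_0002s25240 (limma adjusted p = 1.00, 95% interval -0.37 to 0.51) and -0.15 ± 0.44 for POPTR_0001s00400 (limma adjusted p = 1.00, 95% interval -1.18 to 0.89). In this comparison 0% of tested genes were called by limma, with 84 genes at an unadjusted p below 0.05 and 0 called by voom. For neither gene did the antisense ratio alone differ in direction from those of both other lines. Across tested genes the antisense difference ran against the other 2. The contrast averages over lines, so opposed differences can cancel in it, and their part in its result was not tested. Without both treated antisense libraries it was 0.23 ± 0.21 for POPTR_0002s25240 (limma adjusted p = 0.646) and -0.18 ± 0.52 for POPTR_0001s00400 (limma adjusted p = 0.897), with 0 genes called and 3268 at an unadjusted p below 0.05. In the overexpression line the H2O2 to ASA ratio of POPTR_0002s25240 was 0.998 (95% counting interval 0.921 to 1.08) and that of POPTR_0001s00400 was 0.747 (0.715 to 0.780). For POPTR_0002s25240 it was 0.833 in the antisense line (0.762 to 0.911) and 1.40 in wild type (1.24 to 1.59). For POPTR_0001s00400 it was 0.943 in the antisense line (0.859 to 1.04) and 1.04 in wild type (0.941 to 1.16).

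The pair moved in nearly the same order over the 9 libraries, with Pearson r = 0.827 on log2(FPKM + 1) and Spearman rho = 0.983, as a description of libraries that share lines and treatments. The FPKM of the hydrophobic seed protein gene was 1.36 to 6.16 times that of POPTR_0002s25240. The ratio was 4.61, 6.16 and 2.18 in overexpression H2O2, ASA and control libraries, 1.54, 1.36 and 3.07 in the antisense ones and 1.86, 2.50 and 4.15 in wild type. Treatment thus raised the ratio in the overexpression line and lowered it in the other lines.

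Described genes whose pattern was most like each member were found by Pearson r of log2(FPKM + 1) over the 9 libraries, among 2716 candidates. For POPTR_0002s25240 these were the M20 peptidase POPTR_0005s20110 (r = 0.942), the WD-repeat gene of the Cdc20/Fizzy family POPTR_0008s05770 (0.926), the kinesin POPTR_0013s02150 (0.917), the ribosomal protein L41 gene POPTR_0010s19380 (0.903) and a second Cdc20/Fizzy gene, POPTR_0019s03850 (0.901). Among all tested genes, described or not, 28 were closer than the first of these. For POPTR_0001s00400 they were the protein kinase POPTR_0016s14210 (r = 0.977), the histone H4 gene POPTR_0018s10040 (0.964), the very-long-chain 3-ketoacyl-CoA synthase POPTR_0005s23840 (0.960), the pollen Ole e 1 allergen and extensin gene POPTR_0005s08000 (0.959) and the histone H2A gene POPTR_0013s02990 (0.955). Among all tested genes 2 were closer to POPTR_0001s00400 than the first of these. All 5 had their highest values in the treated overexpression libraries, which choosing them by likeness to that gene favours. POPTR_0005s23840, of the enzyme class that elongates fatty acids for waxes and suberin, had 21.0 and 36.3 FPKM there after H2O2 and ASA, against 1.43 FPKM in the wild type control. These correlations rest on 9 libraries of which 2 stand apart.

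The wider family was taken as the genes whose deposited description names lipid transfer, hydrophobic seed protein, seed storage or amylase inhibitor. It held 13 genes, all tested, of which POPTR_0008s11830 is a glycolipid transfer protein and belongs by wording alone. Only genes that the authors listed as different from wild type carry a description, so the list was chosen on these samples and its directions are not independent evidence. In overexpression against wild type 3 rose and 3 fell (1.05% of all tested genes were called higher and 1.81% lower). The list median was -0.42 against 0.00054 over all tested genes. An unadjusted p below 0.05 was found for 9 of the 13, and the share of all tested genes below that threshold is not given here. Besides POPTR_0002s25240, the genes that rose were POPTR_0004s08500, whose description adds the Par allergen type (1.91 ± 0.26, limma adjusted p = 0.0161), and POPTR_0001s13860 (1.61 ± 0.24, limma adjusted p = 0.0190). Those that fell were POPTR_0003s08230 (-1.90 ± 0.29, limma adjusted p = 0.0217), POPTR_0001s15850 (-1.19 ± 0.21, limma adjusted p = 0.0356) and the type 2 non-specific lipid-transfer protein gene POPTR_0015s03910 (-2.05 ± 0.16, limma adjusted p = 0.00234), which is named after its values were seen.

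These family counts rest on single libraries. The risen and fallen genes numbered 1 and 1 without overexpression H2O2, 0 and 1 without overexpression ASA, 5 and 3 without the overexpression control, 1 and 2 without the antisense control, 1 and 1 without wild type H2O2, 0 and 1 without wild type ASA and 1 and 1 without the wild type control. They were 1 and 2 without both treated antisense libraries. Among all tested genes 70 to 1479 were called over the single omissions, and whether the family counts only follow that total was not tested. Over the 9 single omissions the call was kept in 9 for POPTR_0015s03910, 6 for POPTR_0004s08500, 4 each for POPTR_0001s13860 and POPTR_0003s08230 and 3 for POPTR_0001s15850. In antisense against wild type 0 of the 13 passed by limma and 0 by voom, where 0.0814% of all tested genes were called by limma. An unadjusted p below 0.05 was found for 6 of the 13. The share of all tested genes below that unadjusted threshold is not given here, so the 6 cannot be set against it.

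POPTR_0001s00410, the gene with the next identifier after the hydrophobic seed member and the same description, behaved otherwise. It had 3870 and 4900 FPKM in overexpression cells after H2O2 and ASA, 2272 FPKM in their control, 2677, 2843 and 2554 FPKM in the antisense line, and 4393, 4292 and 5425 FPKM in wild type. Its difference from wild type was -0.42 ± 0.31 in the overexpression line (limma adjusted p = 0.514) and -0.80 ± 0.31 in the antisense line (limma adjusted p = 0.632). After treatment it was above control in the overexpression and antisense lines and below it in wild type. How reads from closely similar copies were assigned is not stated, and the sequences of this pair were not compared, so the split of reads between them is uncertain.

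The family's total was set by POPTR_0001s00410 and by POPTR_0003s11070, also of the hydrophobic seed description (-1.36 ± 0.28 in overexpression against wild type, limma adjusted p = 0.0545). Together the members made up 5.34% and 4.99% of the family's summed FPKM in treated overexpression cells after H2O2 and ASA, against 0.264% in the wild type control. Besides the members, 4 of 11 genes were above control in all 6 treated libraries, namely POPTR_0006s01020, POPTR_0001s15850, POPTR_0001s13860 and POPTR_0006s06430, with 6.57% of all tested genes so. This count uses the measure that chose the members and is a description, and POPTR_0006s06430 is named after its values were seen. POPTR_0006s01020 had 42.3 and 51.2 FPKM after H2O2 and ASA against 13.4 in the overexpression control, and 56.8 and 64.4 against 22.7 in wild type. Below control in all 6 were 2 of the 11, POPTR_0015s03910 and POPTR_0003s08230, with 7.29% of all tested genes so.

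**Figure D5:**
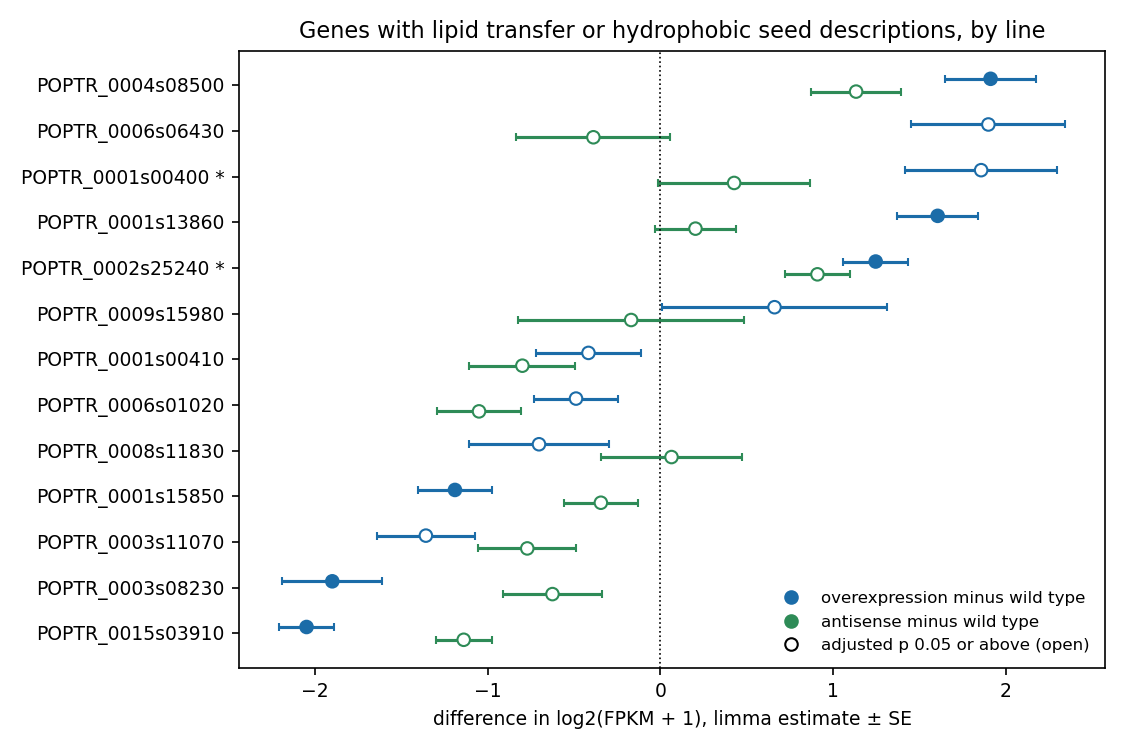
Difference from wild type in log2(FPKM + 1), limma estimate with SE as bars, for the 13 genes with lipid transfer or hydrophobic seed descriptions; filled points have an adjusted p below 0.05 and stars mark POPTR_0001s00400 and POPTR_0002s25240. In the overexpression line 3 filled points lie above 0 and 3 below it, and no antisense point is filled.

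Genes of neighbouring roles did not share one direction. Of 32 genes with fatty acid, wax, cutin or suberin wording, 5 rose and 3 fell in overexpression against wild type (1.05% of all tested genes were called higher and 1.81% lower), with a list median of -0.36 against 0.00054 over all tested genes. The 4 with the highest mean level did not pass: the stearoyl-ACP desaturase POPTR_0005s21000 (0.17 ± 0.82), the GDSL lipases POPTR_0013s06120 (-2.27 ± 0.70) and POPTR_0017s02500 (-2.69 ± 1.16), and the 3-ketoacyl-CoA synthase POPTR_0018s01300 (-0.37 ± 0.22). Without the overexpression control both lipases passed, POPTR_0013s06120 at -3.38 (limma adjusted p = 0.00396) and POPTR_0017s02500 at -4.56 (limma adjusted p = 0.00466), and without overexpression H2O2 they were at -1.58 and -1.67. Of 75 genes with wording of other pathogenesis-related families, which includes ERF transcription factors by their description, 5 rose and 13 fell against the same shares, with a median of -0.58. In antisense against wild type 0 of the 32 lipid genes passed by limma and 0 by voom. An unadjusted p below 0.05 was found for 7 of them, and the share of all tested genes below that threshold is not given here. There 0 of the 75 pathogenesis-related genes rose and 3 fell (0.0814% of all tested genes called), and 2 fell by voom. Leaving out any 1 library other than the overexpression control gave 0 fallen genes. Among those of highest level, the family 19 chitinase POPTR_0004s18870 fell by 1.87 ± 0.27 (limma adjusted p = 0.0190) and the thaumatin POPTR_0001s09570 fell by 1.29 ± 0.20 (limma adjusted p = 0.0244). The Bet v I gene POPTR_0008s23090 (-1.25 ± 0.28) and the ERF gene POPTR_0002s20270 (-0.05 ± 0.33) did not pass. The chitinase call was kept in 5 and the thaumatin call in 3 of the 9 single omissions. Leaving out overexpression H2O2, overexpression ASA, the antisense control or any 1 wild type library gave 1 to 3 risen and 0 fallen lipid genes, and 0 to 2 risen and 4 to 11 fallen pathogenesis-related genes. Without the overexpression control they were 6 and 11, and 4 and 16. Among all tested genes 70 to 1479 were called over the 9 single omissions, and whether the list counts only follow that total was not tested. Both lists hold only genes the authors listed in these samples, so their directions are not independent evidence.

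All genes in the authors' deposited tables are at least 2-fold different from wild type, and the largest q in them is 0.00498. POPTR_0001s00400 is listed for the overexpression line after H2O2 (log2 fold 2.35, q = 8.91e-23) and after ASA (log2 fold 2.77, q = 5.57e-38). The authors' deposited tables list POPTR_0002s25240 after ASA for the overexpression line (log2 fold 1.47, q = 0.000194) and the antisense line (log2 fold 1.07, q = 0.00167). In all, 1030 genes are listed for overexpression H2O2, 1224 for overexpression ASA and 1391 for antisense ASA. Each comparison has 1 library on each side. Being listed is what gave both genes a description, so these values are not independent evidence. Neither gene is listed in the control tables. POPTR_0002s25240 had 366 reads in the overexpression control against 122 in the wild type control, and the authors' q for unlisted genes is not given. Wild type values in the authors' deposited tables are a median of 0.992 times the depth-scaled reads recovered here.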

How the data were processed

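FPKM values for 9 libraries were made by the authors and are used as deposited. HTSeq 0.6.1, Bowtie2 2.2.3, TopHat and TopHat2 2.0.12 are named, without roles, per the submitters' processing notes. The genome build is not given in the sources used here. Beside these, 6 tables were deposited by the authors, with scaled read values (a signal of unstated scale), log2 fold changes and p-values and q-values, whose test is not stated. Each library was placed by its title. None of the identifiers matched the reference gene table (0 matched).

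FPKM steps gave whole reads for 100% of the 33158 genes above 0, within a relative tolerance of 1e-07. These reads set depth and 95% intervals, exact Poisson for a level and exact binomial for a ratio of 2 libraries, which cover counting error only. Because nothing replicates a condition, ratios of 2 libraries carry no test.

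Line differences and H2O2 minus ASA were fitted in R 4.3.3 by limma 3.58.1, taking log2(FPKM + 1), which understates changes of low genes, with line and treatment as factors, a trend on mean level, and 4 residual plus 3.31 prior degrees of freedom. The script was tested on simulated data. A limma test of the response by line was also run after the values had been seen, and is not reported because the responses chose the members. Alternatives were a pseudocount of 0.1, no filter, a mean of at least 5 FPKM, quantile normalization, voom on recovered reads and leaving out libraries. Named genes are the members, the 5 described genes most correlated with each, and the highest genes of each list (8 of the family, 4 of each other list). Members and lists were chosen with earlier results of these data known.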

Additional observations from a re-analysis of the deposited data

Results flagged for a closer look

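The sign of the H2O2 to ASA ratio differed between lines for both genes, with 1 library on each side, and the difference between lines was not tested. For POPTR_0002s25240 the log2 ratio of H2O2 to ASA was -0.0031 in the overexpression line and -0.26 in the antisense line, against 0.49 in wild type. The overexpression value was within counting error of 0, whereas the antisense and wild type counting intervals lay on opposite sides of it. For POPTR_0001s00400 the log2 ratio was -0.42 in the overexpression line and -0.085 in the antisense line, against 0.063 in wild type. Here the antisense and wild type values were each within counting error of 0. Across all tested genes the H2O2 minus ASA difference of the antisense line correlated at -0.838 with that of wild type and at -0.577 with that of the overexpression line, against 0.622 between the overexpression line and wild type. The part of that opposition in these values, and whether the treated antisense labels are exchanged, was not tested.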

How the results depend on the processing

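No paired analysis was possible because each condition has 1 library and shared replicate numbers pair nothing. With any 1 library left out, log2 estimates for POPTR_0002s25240 were 1.12 to 1.42 in overexpression minus wild type and -0.11 to 0.20 in H2O2 minus ASA. For POPTR_0001s00400 they were 1.42 to 2.53 in overexpression minus wild type, 0.99 to 2.10 in overexpression minus antisense and -0.38 to 0.29 in H2O2 minus ASA. Genes called numbered 70 to 1479 in overexpression minus wild type, 0 to 30 in antisense minus wild type and 10 to 2147 in overexpression minus antisense. Signs turned, with ranges in antisense minus wild type of -0.023 to 0.44 for POPTR_0001s13860, -0.27 to 0.67 for POPTR_0008s11830, -0.63 to 0.043 for POPTR_0006s06430 and -1.03 to 0.75 for POPTR_0009s15980, and in overexpression minus wild type of -0.57 to 1.15 for POPTR_0005s21000 and -0.28 to 0.23 for POPTR_0002s20270.

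Without both treated antisense libraries 402 genes were called in overexpression minus wild type, 0 in antisense minus wild type and 0 in overexpression minus antisense, and POPTR_0006s06430 was at 0.072 in antisense minus wild type. Antisense minus wild type called 3 genes with a pseudocount of 0.1, 0 with no filter, 7 with a mean of at least 5 FPKM and 5 by voom. Overexpression minus antisense called 44 with a mean of at least 5 FPKM and 42 by voom. Under quantile normalization POPTR_0008s11830 was at -0.0044 in antisense minus wild type, and the overexpression over control log2 ratios of POPTR_0001s00400 were 2.71 after H2O2 and 3.04 after ASA. The cause of these shifts was not tested. The alternatives for the family and the other gene lists were chosen after seeing the data. With 1 library per condition, counting intervals hold no biological spread.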
